A study of Mus musculus with 24 samples.

Results

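The genes described here are a list of 36 mouse genes of the heat shock response and the unfolded protein response. They were chosen by symbol and not by a rule on their values, but with earlier results of these data known. They comprise 10 cytosolic chaperones and co-chaperones, 4 small heat shock proteins, 3 mitochondrial chaperones, 12 chaperones and folding enzymes of the endoplasmic reticulum, 3 genes of reticulum-associated degradation and 4 stress factors. Of the 36, 35 had a probe set that matched 1 gene symbol, out of 18193 such genes in all. Hsp90ab1, a cytosolic chaperone, had none and was not analysed here. Testing in a tissue needed a log2 value above 4 on 3 or more of its arrays. This left 34 of the list among 9962 genes in the left ventricle, where Trib3 did not pass, and 35 among 11600 genes in lung.

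Cells answer misfolded protein with chaperones made for the compartment concerned. In the cytosol the factor HSF1 switches on the inducible Hsp70 and Hsp40 proteins, and in the endoplasmic reticulum the sensors IRE1, PERK and ATF6 act through Xbp1, Atf4 and cleaved ATF6 to raise chaperones, degradation genes and, under lasting stress, Ddit3 (CHOP). Heart muscle is rich in small heat shock proteins that guard the sarcomere, and its mitochondria import most of their proteins with the help of the Hspa9, Hspd1 and Hspe1 chaperones.

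Lung and heart (left ventricle) RNA was hybridised to 24 Affymetrix arrays, 3 for each of 8 groups, which the series text gives as animals. All mice were of the CD-1 strain, 20 weeks old and described as male. The 4 groups of each tissue were dnCREB mice given particulate matter (PM, 20 mg/kg, 1.9 µm particles, harvest at 36 h), dnCREB mice given phosphate-buffered saline (PBS), wild-type (WT) mice given PM and WT mice given PBS. The labels of the heart arrays give the PM harvest time in terms of the lung, and the harvest time of the PBS groups was not given. The dnCREB mice carry a dominant negative CREB1, a form that blocks the cAMP-responsive transcription factor CREB. It is under the alpha myosin heavy chain promoter, so that the design aims it at heart muscle cells and not at the lung. Lung arrays also read cardiomyocyte genes, with a mean of 7.78 to 10.20 per array. The WT mice carry no transgene.

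Values are log2 expression made by the authors with GCRMA, which corrects the background of Affymetrix probes by their sequence and summarises each probe set. The 2 tissues looked as if normalized separately, with array medians of 3.25 to 3.37 in heart and 4.09 to 4.19 in lung, so levels were compared only within a tissue. Differences are log2 differences between group means from limma, with its standard error (SE). A gene was called at an adjusted p under 0.05 over all genes tested in the tissue.

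The genotype labels were checked with Creb1. On 1 of its 6 probe sets the 6 dnCREB heart arrays read 9.05 to 12.00 and the 6 WT heart arrays 2.51 to 3.29, while in lung the dnCREB arrays at 3.34 to 3.98 overlapped the WT arrays at 3.34 to 4.29. The tissue labels fitted their markers: in heart the mean of 8 cardiomyocyte genes lay between 15.83 and 16.27, and 6 or 7 of 8 lung epithelial genes in each group stayed under 4 on every array, while in lung the mean of those 8 genes lay between 12.87 and 13.41. By Xist and Eif2s3y the described male sex did not hold for all arrays. In heart 7 arrays had Xist and 5 had the Y-linked gene, and these classes follow the genotype: all 6 WT arrays and dnCREB PM replicate 3 were of the Xist class, and the other 5 dnCREB arrays of the Y class. In lung 6 arrays were of the Xist class, 4 of the Y class and 2 of neither. All 3 WT PBS lungs and WT PM replicate 2 were of the Y class, and no dnCREB lung was, so that the class moves with genotype under PBS and, on 2 of 3 WT PM lungs, with PM in WT lungs. In lung 5 arrays (WT PM replicates 1 and 2, dnCREB PBS replicates 1 and 3, dnCREB PM replicate 3) had a mean of 12 skeletal muscle genes of 8.30 to 8.63, against 3.04 to 4.55 on the other 7. In bulk tissue, fewer cells of a type and less RNA per cell cannot be told apart.

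Promoters of the list were read from RefSeq on the build GRCm38.p6, as the 250 bases before and 50 after a gene's start. Of the 36 members 31 had such a window. The stretches shown are those of the member with the largest called difference in heart (Herpud1), of 2 classical reticulum chaperones for comparison (Hspa5, Hsp90b1), of a reticulum chaperone called in heart (Canx), and of Hspd1, a mitochondrial chaperone called in heart. Capitals mark exact matches to 4 motifs on either strand. They are the endoplasmic reticulum stress element (ERSE, CCAAT and CCACG with 9 bases of any kind between them), its short form ERSE-II (ATTGG and CCACG with 1 base between them), a heat shock element (HSE, GAA, TTC and GAA with 2 bases between neighbours), and the amino acid response element of ATF4 (CARE, TTGCATCA).
Herpud1, chr8:94386179-94386478, plus strand, ERSE-II and CARE: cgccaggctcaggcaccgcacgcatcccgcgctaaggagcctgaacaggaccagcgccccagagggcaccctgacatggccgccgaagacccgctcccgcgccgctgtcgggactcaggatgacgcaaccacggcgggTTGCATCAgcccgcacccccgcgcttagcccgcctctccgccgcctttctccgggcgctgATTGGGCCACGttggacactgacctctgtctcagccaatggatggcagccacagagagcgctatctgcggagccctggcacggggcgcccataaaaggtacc
Hspa5, chr2:34771840-34772139, plus strand, ERSE: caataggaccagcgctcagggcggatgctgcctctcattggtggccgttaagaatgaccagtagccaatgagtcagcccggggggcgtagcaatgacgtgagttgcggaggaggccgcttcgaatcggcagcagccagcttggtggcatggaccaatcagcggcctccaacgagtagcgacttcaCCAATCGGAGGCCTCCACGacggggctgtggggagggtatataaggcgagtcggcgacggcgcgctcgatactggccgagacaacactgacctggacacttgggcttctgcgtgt
Hsp90b1, chr10:86705395-86705694, minus strand, ERSE on both strands: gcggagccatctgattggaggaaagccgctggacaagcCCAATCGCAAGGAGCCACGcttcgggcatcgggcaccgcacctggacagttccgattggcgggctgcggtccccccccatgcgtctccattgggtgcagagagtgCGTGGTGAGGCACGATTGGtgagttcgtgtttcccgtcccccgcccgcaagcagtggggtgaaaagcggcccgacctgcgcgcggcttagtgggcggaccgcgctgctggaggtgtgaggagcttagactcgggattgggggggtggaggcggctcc
Canx, chr11:50325624-50325923, minus strand, ERSE: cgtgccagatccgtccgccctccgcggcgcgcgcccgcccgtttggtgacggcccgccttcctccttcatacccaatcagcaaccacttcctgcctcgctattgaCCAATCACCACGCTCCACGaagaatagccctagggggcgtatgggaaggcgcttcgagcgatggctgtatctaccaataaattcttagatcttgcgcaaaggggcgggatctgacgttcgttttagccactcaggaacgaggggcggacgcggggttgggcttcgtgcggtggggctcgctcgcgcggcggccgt
Hspd1, chr1:55087883-55088182, minus strand, HSE: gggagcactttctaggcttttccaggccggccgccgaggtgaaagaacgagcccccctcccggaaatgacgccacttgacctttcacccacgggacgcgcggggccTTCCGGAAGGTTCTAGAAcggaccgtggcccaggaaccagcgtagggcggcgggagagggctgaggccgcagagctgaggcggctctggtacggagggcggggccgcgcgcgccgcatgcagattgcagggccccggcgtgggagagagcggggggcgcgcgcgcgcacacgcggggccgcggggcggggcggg

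The Herpud1 window holds an ERSE-II that starts 52 bases before the gene's start and a CARE that starts 112 bases before it. ERSE-II occurred in 0.0366% of the 32817 promoter windows of the table, and Herpud1 was the 1 member of the list with it. The full ERSE occurred in 0.119% of windows and in 7 members, all of them reticulum chaperones or folding factors: Calr, Canx, Creld2, Dnajc3, Hsp90b1, Hspa5 and Pdia6. Hspd1 has a second window in the table, chr1:55088194-55088493, with no match to any of the motifs. The HSE occurred in 0.603% of windows and in Hspd1, Hspe1 and Hsph1. The matches in Hspd1 run into each other as 1 stretch read on both strands, and Hspe1, which lies head to head with Hspd1, shares 285 bases of this window. CARE occurred in 0.896% of windows, and the palindromic CREB site (CRE, TGACGTCA) in 1.79% of windows and in no member. The called members shown are thus those with a match. Of the other called members, Hspa4, Pdia4 and Ddit3 had windows without a match to any of these motifs, and Hspa9 had no window. A match describes letters, and the lack of one concerns these windows alone.

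The first question was how the list stood in the dnCREB heart without particles. Under PBS, 5 of 34 members (14.7%) were called between dnCREB and WT hearts, 3 higher and 2 lower, where 18.8% of all genes tested were called. The split was 2 higher and 4 lower with arrays centred on their median, and 2 higher and 3 lower after quantile normalization. The share of the list was thus not above that of all genes, and the list's median difference was 0.19 against 0.09 over all genes. That median rests on single arrays: it was 0.42 without WT PBS replicate 1, 0.023 without WT PBS replicate 3 and 0.067 without dnCREB PBS replicate 3. With arrays centred it was 0.072, and after quantile normalization 0.11. Groups did not overlap for 9 members, against 42.7% of all genes. The 5 called were Hspa4 in the cytosol, Hspa9 in mitochondria, Pdia4 and Herpud1 of the reticulum, and the stress factor Ddit3.

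The largest of these was Herpud1, a reticulum membrane protein that helps to send misfolded proteins to degradation and is itself made on reticulum stress. Herpud1 read 11.95, 11.92 and 12.33 in dnCREB PBS hearts, against 13.58, 13.34 and 13.14 in WT PBS hearts. All 3 dnCREB hearts lay below all 3 WT hearts. The log2 difference was -1.29 (SE 0.18, adjusted p 0.0011), or 2.44-fold lower. A second Herpud1 probe set gave -1.37. The other degradation genes of the list, Edem1 and Sel1l, were not called, with 0.69 and 0.23.

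Hspa9 (mortalin), the Hsp70 of the mitochondrial matrix that draws proteins through the import channel, read 13.03, 12.87 and 12.94 in dnCREB PBS hearts and 13.30, 13.40 and 13.35 in WT PBS hearts. The groups did not overlap, and the difference of -0.40 (SE 0.10, adjusted p 0.017) was small beside that of Herpud1. Without WT PBS replicate 2 or 3, or dnCREB PBS replicate 2 or 3, it was -0.36 to -0.40 with adjusted p values of 0.052 to 0.058. Hspd1 (Hsp60) and Hspe1 (Hsp10), which form the folding chamber of the matrix, had differences of -0.47 and -0.28 that did not pass, so that all 3 mitochondrial members had negative values. A second Hspa9 probe set gave -0.47.

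3 members were higher in dnCREB PBS hearts. Hspa4, a nucleotide exchange factor of the Hsp110 family that resets Hsp70, read 12.26, 11.81 and 12.37 in dnCREB PBS hearts and 11.35, 11.40 and 11.09 in WT PBS hearts, a difference of 0.87 (SE 0.17, adjusted p 0.0058). Pdia4, a disulfide isomerase of the reticulum, read 7.02, 7.30 and 7.85 in dnCREB PBS hearts and 6.85, 6.28 and 6.24 in WT PBS hearts, with 0.93 (SE 0.22, adjusted p 0.015). Neither gene's groups overlapped. Ddit3, the CHOP transcription factor, read 10.03, 10.02 and 9.88 in dnCREB PBS hearts and 9.40, 9.34 and 9.02 in WT PBS hearts, with 0.72 (SE 0.20, adjusted p 0.034). All 3 dnCREB hearts lay above all 3 WT hearts for Ddit3 as well.

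Of these 3 calls, those of Pdia4 and Ddit3 were less firm than that of Herpud1 when 1 array was left out. Hspa4 passed in all 12 such fits, but its other probe sets gave smaller differences. Pdia4 had 0.70 to 0.85 without WT PBS replicate 2 or 3 or dnCREB PBS replicate 3, with adjusted p values of 0.051 to 0.062. Over all 21 other settings the Pdia4 difference ranged from 0.45 to 1.13. Ddit3 had 0.61 to 0.80 without any 1 of the 6 PBS hearts, with adjusted p values of 0.055 to 0.12. Of the other Hspa4 probe sets 1 gave 0.39 and another 0.38. With the mean of its probe sets Hspa4 was not called, and over all 21 other settings its lowest difference was 0.40. The other Ddit3 probe set, above 4 on 2 of 12 heart arrays, gave -0.77.

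**Figure D1:**
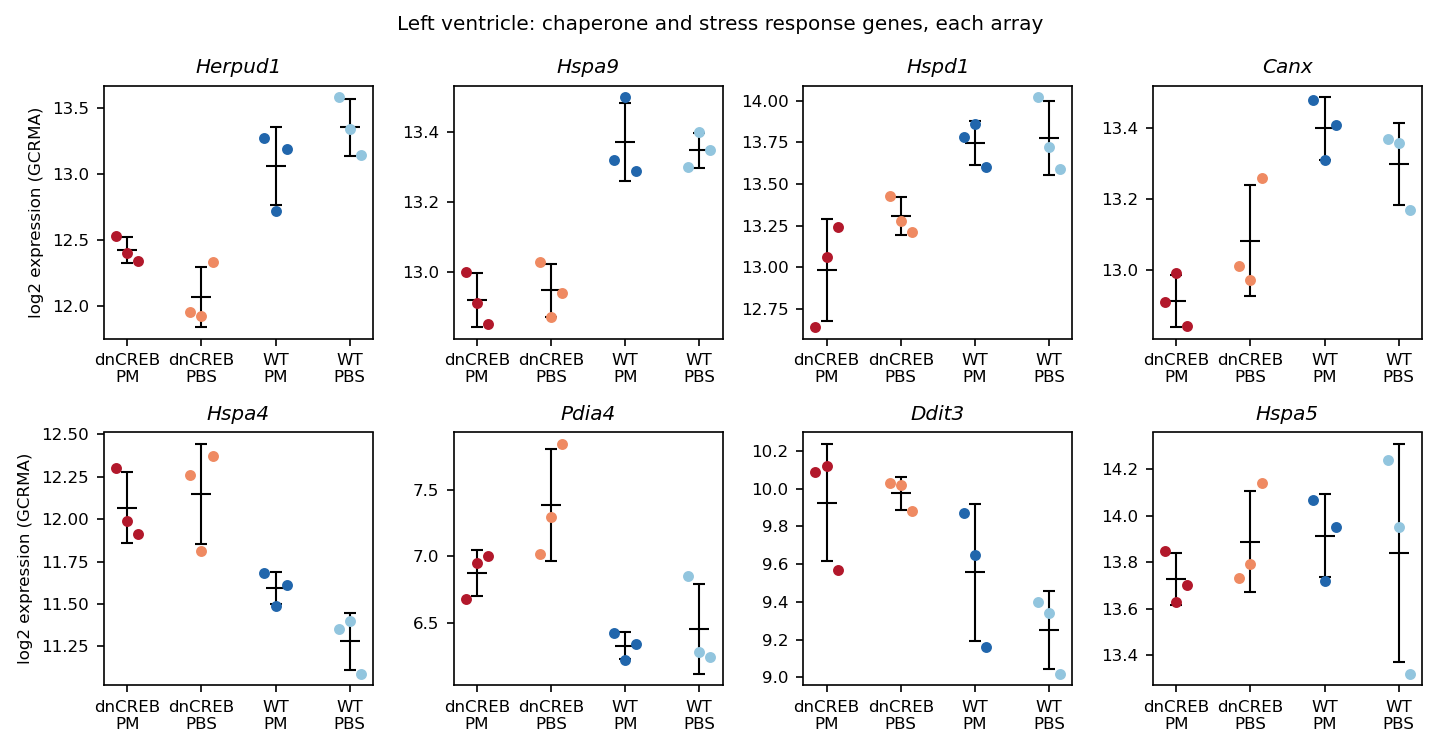
Log2 expression in the left ventricle of the 7 members called between dnCREB and WT hearts, and of Hspa5 for comparison, with 1 point per array and the mean and SD of 3 arrays per group. Herpud1, Hspa9 and Hspd1 lie lower in all 6 dnCREB hearts than in any of the 6 WT hearts, Hspa4 lies higher in all 6, and the 4 groups of Hspa5 overlap.

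The same question was asked in PM-treated hearts. Under PM, 4 of 34 members (11.8%) were called and all 4 were lower in dnCREB hearts, where 20.5% of all genes were called. After quantile normalization Hspa4 was called too, which made 1 higher and 4 lower. Again the share of the list was not above that of all genes, and the list's median was 0.07 against 0.02 over all genes. It was -0.055 with arrays centred, 0.14 without WT PM replicate 1, 0.0038 without WT PM replicate 2, and 0.032 and 0.038 without dnCREB PM replicate 1 or 2. Groups did not overlap for 16 members, against 36.5% of all genes, with 10 above and 6 below. The 4 called were the mitochondrial Hspd1 and Hspa9 and the reticulum genes Canx and Herpud1.

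Hspd1 read 12.64, 13.06 and 13.24 in dnCREB PM hearts, against 13.78, 13.86 and 13.60 in WT PM hearts, a difference of -0.77 (SE 0.17, adjusted p 0.011). Hspa9 read 13.00, 12.91 and 12.85 in dnCREB PM hearts and 13.32, 13.50 and 13.29 in WT PM hearts, with -0.45 (SE 0.10, adjusted p 0.010). For both chaperones every dnCREB heart lay below every WT heart, under PM as under PBS. Hspe1 had -0.41 and did not pass.

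Canx, the membrane-bound lectin chaperone that holds new glycoproteins in the reticulum, read 12.91, 12.99 and 12.84 in dnCREB PM hearts and 13.48, 13.31 and 13.41 in WT PM hearts. The groups lay apart, with a difference of -0.49 (SE 0.11, adjusted p 0.013), and a second Canx probe set also gave -0.49. Calr, its soluble partner in the reticulum lumen, was not called, with 0.11. Herpud1 read 12.53, 12.40 and 12.34 in dnCREB PM hearts, against 13.27, 12.72 and 13.19 in WT PM hearts. Its difference under PM was -0.64 (SE 0.18, adjusted p 0.030), and its second probe set gave -0.82. Without WT PM replicate 1 or 3, or dnCREB PM replicate 2 or 3, it was -0.53 to -0.63 with adjusted p values of 0.059 to 0.099.

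Of the 7 members called in either condition, Herpud1 and Hspa9 were called in both, each lower in dnCREB hearts. These are 40% of the calls under PBS and 50% of those under PM. Over all genes, 1257 were called in both, or 67.3% of the calls under PBS and 61.6% of those under PM. Whether genotype differences changed with PM was tested as an interaction, in which no member was called among the 0% of all genes called. Herpud1 had the 1 interaction of the list with an unadjusted p under 0.05, at 0.65 (SE 0.25, adjusted p 0.98).

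**Figure D2:**
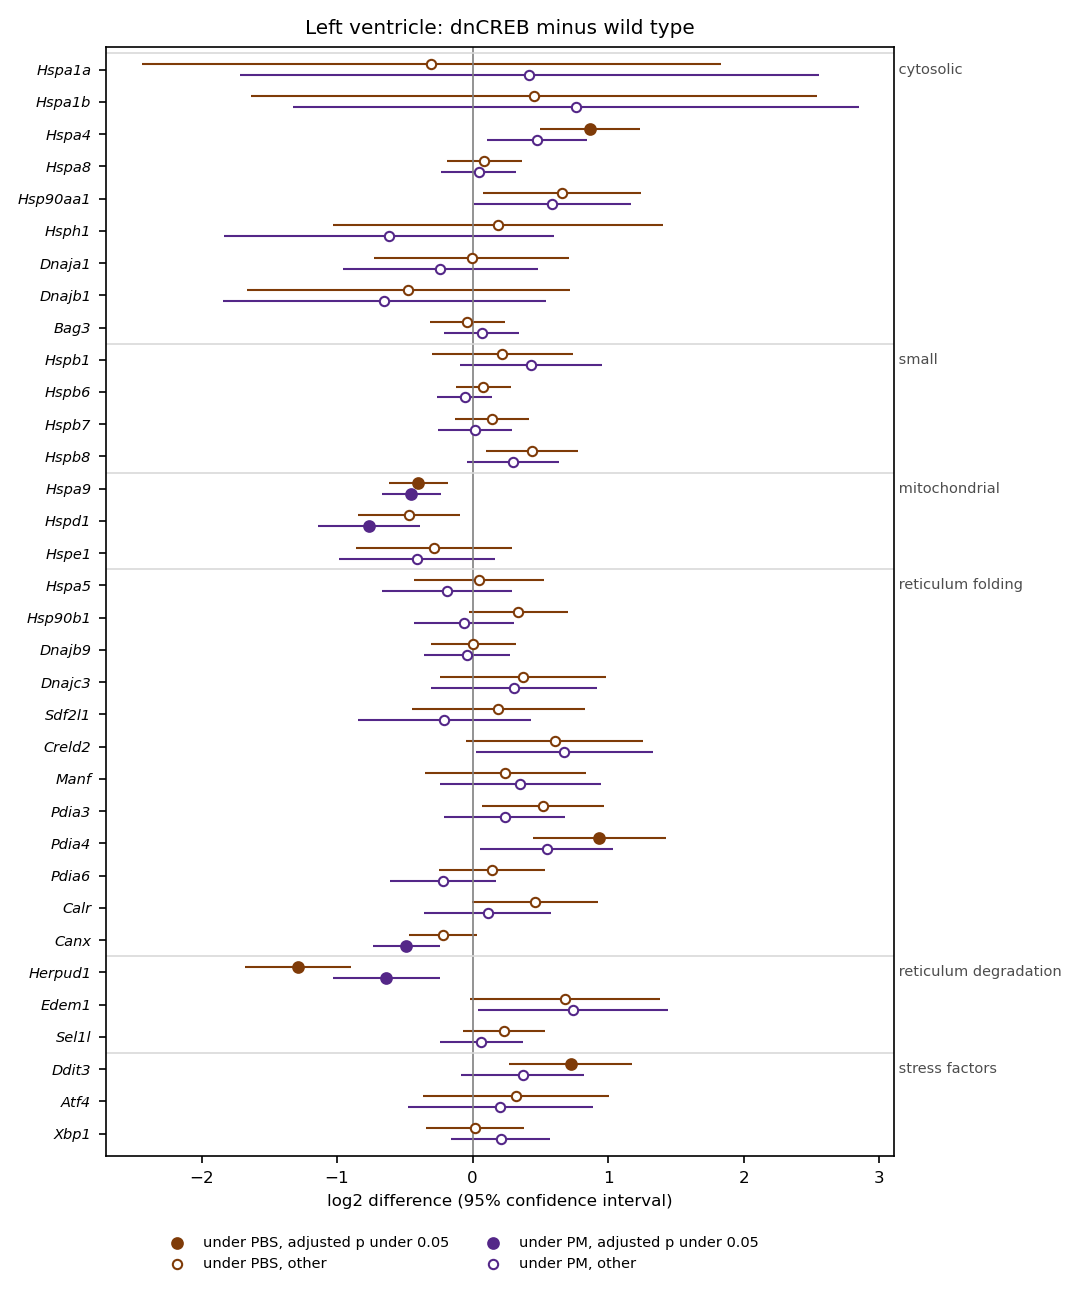
Log2 difference between dnCREB and WT left ventricle for the 34 members tested, grouped by role, with limma's 95% confidence intervals under PBS and under PM (filled points passed the adjusted p of 0.05). The 3 mitochondrial members are negative in both conditions and Herpud1 stands lowest of the list under PBS at -1.29, while the intervals of Hspa1a and Hspa1b span more than those of any other member.

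The remaining roles showed no call in the genotype comparisons beyond those named. The 4 small heat shock proteins, among which Hspb6 and Hspb7 are abundant in muscle, ranged from 0.08 to 0.44 under PBS (1 of them negative with arrays centred on their median) and from -0.06 to 0.43 under PM. Hspb8, the partner of Bag3 in clearing damaged filament proteins, had 0.44 under PBS with groups that did not overlap (adjusted p 0.072). Of the 12 reticulum folding members 11 had a positive difference under PBS, with a median of 0.29, and 6 did under PM. With arrays centred or quantile normalized 9 and 8 of the 12 were positive under PBS. Hspa5 (BiP), the chief reticulum chaperone, had 0.05 under PBS and -0.19 under PM, with overlapping groups in both. Xbp1 and Atf4 had 0.02 and 0.32 under PBS and 0.21 and 0.20 under PM.

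Markers of some other cells differed with genotype in the same hearts, where 18.8% of all genes were called under PBS and 20.5% under PM. Of 7 fibroblast genes 5 were called higher in dnCREB hearts in both conditions, and their mean per array was 12.27 to 13.83 in dnCREB PM, 13.03 to 13.35 in dnCREB PBS, 11.19 to 11.53 in WT PM and 11.21 to 11.37 in WT PBS hearts. Of 9 macrophage genes 7 (77.8%) were called higher under PM and 1 (11.1%) under PBS. Of 6 endothelial genes 0 were called in either condition. Of 8 cardiomyocyte genes 2 (25%) were called lower under PM and 1 (12.5%) under PBS, and 0 were called higher. Of all 9962 genes, 910 were called lower under PM and 558 under PBS. The difference was negative for 8 of the 8 cardiomyocyte genes under PM and for 6 under PBS. Over all genes it was negative for 4780 under PM and 4108 under PBS. The mean of the cardiomyocyte genes per array was 15.83 to 16.02 in dnCREB PM and 15.84 to 15.94 in dnCREB PBS hearts. In WT hearts it was 16.10 to 16.23 under PM and 16.01 to 16.27 under PBS. The part of these cells in the differences of the list was not tested.

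The sex-chromosome class moves with genotype in heart. With the class as a covariate, whose estimate rests on dnCREB PM replicate 3, no member passed under PBS and 1 passed under PM, namely Hspa9 with -0.52 (adjusted p 0.049). Of all genes 3.38% passed under PBS and 9.46% under PM in that fit. Herpud1 kept its size in that fit, with -1.42 (adjusted p 0.053) under PBS and -0.72 (adjusted p 0.12) under PM. Hspd1 was smaller there, with -0.08 (adjusted p 0.92) under PBS and -0.51 (adjusted p 0.19) under PM. Of the 3 members higher under PBS, Hspa4 had 0.63 (adjusted p 0.33), Pdia4 1.12 (adjusted p 0.19) and Ddit3 0.19 (adjusted p 0.83) there. On dnCREB PM replicate 3, which shares the Xist class of the WT hearts, Herpud1 read 12.34, Hspa9 12.85 and Hspd1 13.24, each below all 3 WT PM arrays. Among the dnCREB PM hearts this array was the lowest for Herpud1 and Hspa9 and the highest for Hspd1. With 1 such array the class and the genotype cannot be told apart.

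Other genes of these pathways were counted in a list of 83. Of them 79 were tested in heart, 16 (20.3%) were called under PBS, 11 higher and 5 lower, and 17 (21.5%) under PM, 11 higher and 6 lower. Both shares lie near those of all genes. Those with the smallest adjusted p were higher for Nupr1, a stress-induced chromatin protein, with 3.51 under PBS and 4.02 under PM. Hspa2, an Hsp70 best known from testis, had 1.65 under PBS and 1.66 under PM. Ppib, a reticulum prolyl isomerase of the collagen-folding complex, had 0.87 under PBS and 1.02 under PM, and P4hb, the disulfide isomerase that is also a subunit of collagen prolyl hydroxylase, had 0.79 under PBS. Unc45b, the co-chaperone that folds muscle myosin, was lower with -1.07 under PBS and -1.14 under PM, and the mitochondrial Clpx was lower with -0.74 under PM. 10 of these genes were called in both conditions, each in the same direction, as were all 1257 such genes of the tissue. These 10 are 62.5% of the related calls under PBS and 58.8% under PM, against 67.3% and 61.6% over all genes.

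Nupr1 read 10.24, 9.63 and 10.59 in dnCREB PM, 9.51, 8.69 and 10.59 in dnCREB PBS, 6.74, 5.82 and 5.85 in WT PM and 5.87, 6.37 and 6.03 in WT PBS hearts. Unc45b read 12.26, 11.80 and 11.56 in dnCREB PM, 11.84, 11.85 and 12.15 in dnCREB PBS, 13.16, 12.84 and 13.03 in WT PM and 13.15, 13.03 and 12.86 in WT PBS hearts. For both genes the 6 dnCREB hearts and the 6 WT hearts did not overlap.

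The next comparison was PM against PBS in the heart. No member was called in dnCREB hearts, where 0% of all genes were called, and none in WT hearts, where 0.01% were called. Unadjusted p values lay under 0.05 for 2 members (5.88%) in dnCREB hearts and for 0 members in WT hearts by limma, against 4.92% and 1.47% of all genes. Those 2 were Pdia4 with -0.51 (adjusted p 0.97) and Hsp90b1 with -0.37 (adjusted p 0.97). Groups did not overlap for 8 members in dnCREB hearts, against 7.48% of all genes, 7 of them below, and for 1 member in WT hearts, against 5.44% of all genes. In dnCREB hearts 29 of 34 differences were negative, including all 12 reticulum folding members, with a list median of -0.16 against -0.03 over all genes. Without dnCREB PBS replicate 3 the median was -0.086. With arrays centred or quantile normalized 28 and 26 were negative, and 11 of the 12 reticulum folding members in both. All of these share the 3 dnCREB PBS arrays, of which replicate 3 is described next.

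The spread among hearts of 1 group was widest in the inducible cytosolic genes. The pooled SD within groups was 1.33 for Hspa1a, 1.30 for Hspa1b, 0.76 for Hsph1 and 0.74 for Dnajb1, larger than in 99.4%, 99.3%, 96.7% and 96.4% of the genes tested. Hspa1a and Hspa1b encode near-identical Hsp70 proteins, so their probe sets may read both and are uncertain as to copy. Hsph1 (Hsp105) resets Hsp70 and Dnajb1 is its Hsp40 partner.

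1 WT heart stood apart for these genes. Hspa1b read 12.54 on WT PBS replicate 1, against 9.27 and 7.67 on the other WT PBS hearts. Hspa1a read 7.94 there against 3.38 and 3.51, and Hsph1 12.24 against 10.56 and 9.63. Dnajb1 read 11.18 there against 9.49 and 8.50. This heart was the highest of its group for 26 of 34 members (76.5%), against 36.1% of all genes. Its mean of 9 macrophage genes was 9.77, against 8.40 and 8.43 on the other WT PBS hearts, and the part of these cells was not tested. WT PBS replicate 3 was the lowest for 27 members (79.4%), against 47.2% of all genes. Without replicate 1, 13.5% of all genes and 7 members were called under PBS. Hsp90aa1 with 0.98 (adjusted p 0.014), Hspa1a with 1.19 (adjusted p 0.022) and Hspa1b with 1.81 (adjusted p 0.039) passed. Ddit3 with 0.80 (adjusted p 0.055) did not. Apart from replicate 1, Hspa1a was above 4 on dnCREB hearts alone, at 4.96 and 4.99 under PBS and 4.05 under PM. Its call in that fit thus sets the group where it is high against WT PBS values under 4. With all arrays Hsp90aa1, the inducible Hsp90, had 0.66 (adjusted p 0.11), Hspa1a -0.31 and Hspa1b 0.45.

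The reticulum folding members moved together on other arrays. On dnCREB PBS replicate 3, all 12 were the highest of their group, against 48.5% of all genes. Hspa5 read 14.14 there, against 13.73 and 13.79 on the other dnCREB PBS hearts, and Manf, a secreted reticulum stress protein, read 12.64 against 11.84 and 11.83. All 3 degradation members were also the highest there, with Edem1 at 9.29 against 8.07 and 8.43. Without this array 2 members were called under PBS, Herpud1 and Hspa4, with 10.9% of all genes in that fit. The count was also 2 without WT PBS replicate 2 (13.5% of all genes) or 3 (11.9%), and 3 without dnCREB PBS replicate 2 (16.8%). The share of all genes called thus fell in these fits too, below the 18.8% with every array. On WT PM replicate 2, 10 of the 12 were the lowest of their group, against 49.9% of all genes. On WT PBS replicate 1, 10 of the 12 were the highest of their group along with 7 of 9 cytosolic members. On dnCREB PBS replicate 3, 5 of 9 cytosolic members were the highest.

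**Figure D3:**
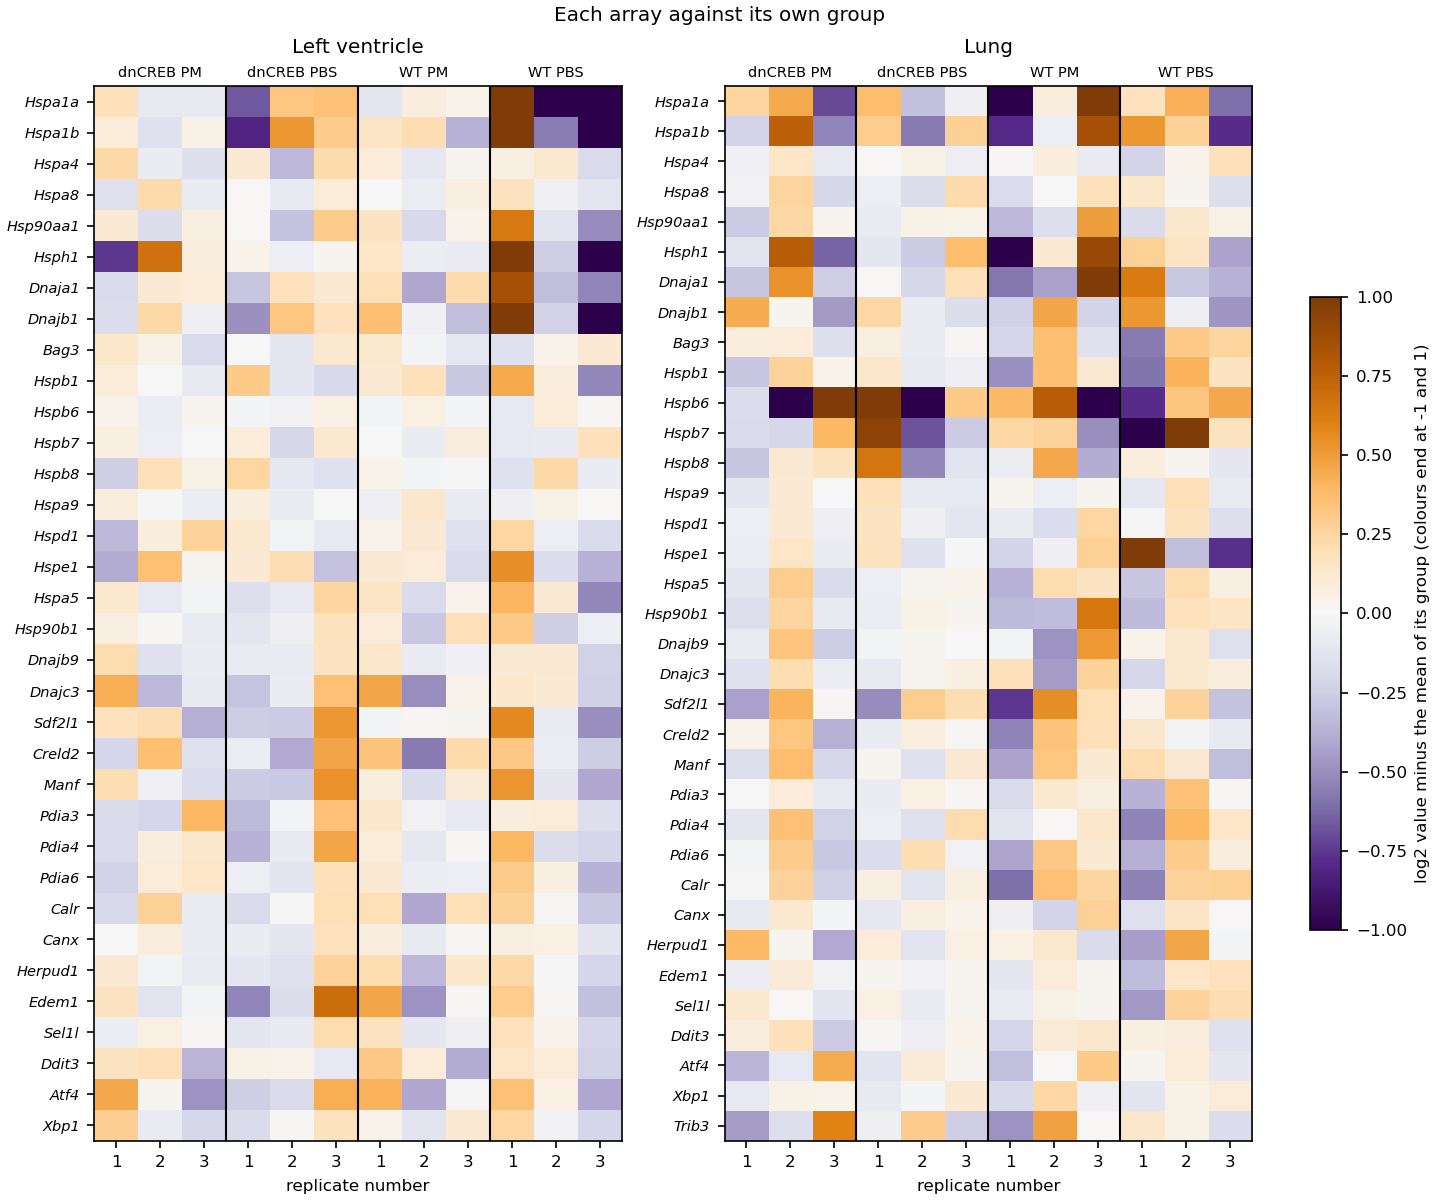
Log2 value of each member on each array minus the mean of its own group, in the left ventricle (34 members) and in lung (35 members), with rows in order of role and colours that end at -1 and 1. WT PBS replicate 1 stands out in heart for the inducible cytosolic genes and dnCREB PBS replicate 3 for the reticulum genes. In lung dnCREB PM replicate 2 is the highest of its group for all 12 reticulum folding and 8 of 9 cytosolic members. WT PM replicate 3 is the highest for 6 of 9 cytosolic members.

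In lung the first question was the response to PM. In WT lungs 1 of 35 members was called between PM and PBS (2.86%), where 2.39% of all genes were called. It was Hspa4, which read 11.05, 11.11 and 10.95 in WT PM lungs, against 10.14, 10.40 and 10.55 in WT PBS lungs. The groups lay apart, with a difference of 0.67 (SE 0.15, adjusted p 0.043), or 1.59-fold higher. Over all genes the median difference here was 0.11, and Hspa4 stood 0.57 above it. In dnCREB lungs Hspa4 read 10.76, 10.95 and 10.71 under PM and 10.40, 10.45 and 10.34 under PBS, a difference of 0.41 (SE 0.15, adjusted p 0.39) that did not pass although the groups did not overlap.

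The Hspa4 call in WT lungs sits at the threshold. It passed in 6 of 23 other settings. Of the 12 that left out 1 array it passed without WT PBS replicate 3 (0.77) and in none of the other 11, with 0.56 to 0.72 among them and adjusted p values up to 0.11. Without the lung arrays rich in skeletal muscle genes it had 0.58 (adjusted p 0.60). The mean over its probe sets gave 0.01 (adjusted p 0.97).

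No member was called in dnCREB lungs under PM, where 0.00862% of all genes were called. Groups did not overlap for 9 members in dnCREB lungs, against 29.1% of all genes, and for 6 in WT lungs, against 26.5%. The list's median was 0.07 in dnCREB lungs and 0.06 in WT lungs, with 0.07 and 0.11 over all genes in the same lungs. Both medians turned with arrays centred, to -0.047 and -0.15. The dnCREB median was -0.013 without dnCREB PM replicate 2 and 0.041 to 0.16 without any other 1 of the 6 dnCREB arrays. The WT median was 0.24 without WT PM replicate 1, 0.20 without WT PBS replicate 2, -0.034 without WT PM replicate 3 and -0.018 without WT PBS replicate 1. Unadjusted p values lay under 0.05 for 3 members (8.57%) in dnCREB lungs and for 6 (17.1%) in WT lungs by limma, against 9.72% and 26.3% of all genes.

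Of the stress factors, none was called. Atf4, the PERK pathway's transcription factor, read 10.63, 10.88 and 11.42 in dnCREB PM lungs and 10.21, 10.44 and 10.37 in dnCREB PBS lungs. It read 10.50, 10.81 and 11.12 in WT PM lungs and 10.25, 10.31 and 10.11 in WT PBS lungs. PM and PBS did not overlap in either genotype, with 0.63 (adjusted p 0.37) in dnCREB and 0.59 (adjusted p 0.13) in WT lungs, but a second Atf4 probe set gave 0.01 in dnCREB and 0.12 in WT lungs. Ddit3, which ATF4 can switch on, had -0.10 in dnCREB and -0.41 (adjusted p 0.15) in WT lungs. Trib3, a pseudokinase downstream of both, had -0.20 in dnCREB and 0.67 (adjusted p 0.18) in WT lungs. None of these passed.

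**Figure D4:**
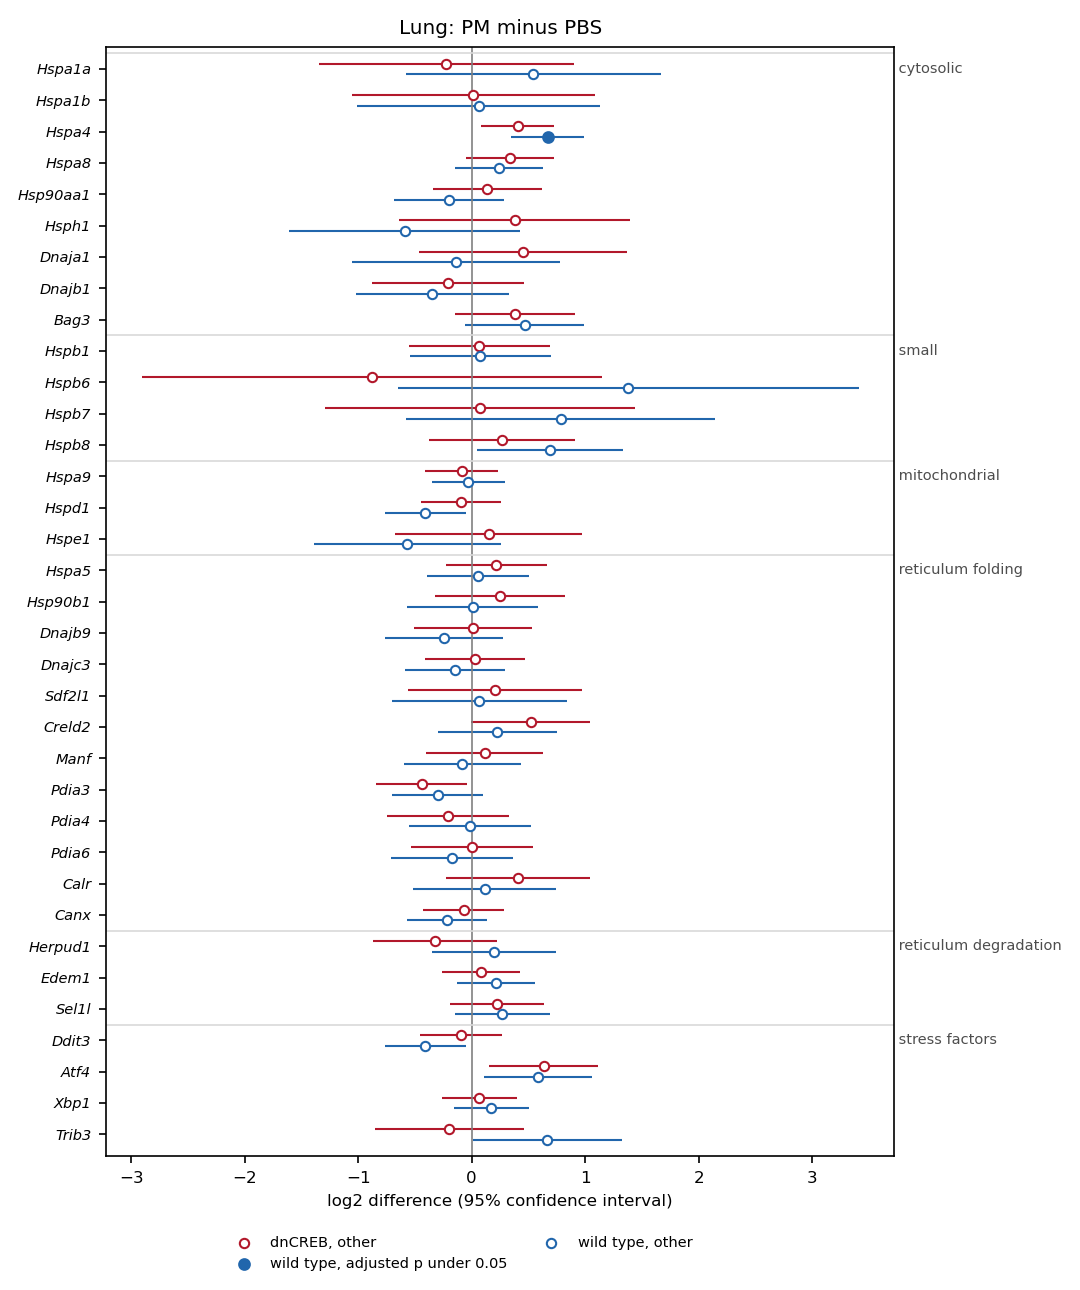
Log2 difference between PM and PBS in lung for the 35 members, grouped by role, with limma's 95% confidence intervals in dnCREB and in WT lungs (the filled point passed the adjusted p of 0.05). Hspa4 in WT lungs, at 0.67, is the 1 filled point, Atf4 is positive in both genotypes, and Hspb6 has the widest intervals.

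Chaperones of the reticulum and of mitochondria were not called in lung. Hspa5 had 0.21 in dnCREB and 0.06 in WT lungs under PM, and Hspd1 had -0.10 in dnCREB and -0.41 (adjusted p 0.15) in WT lungs. The 12 reticulum folding members ranged from -0.44 to 0.52 in dnCREB lungs and from -0.30 to 0.23 in WT lungs. Of 77 related genes tested, 0 were called in dnCREB lungs, against 0.00862% of all genes. In WT lungs 1 (1.3%) was called, against 2.39% of all genes. It was Hspa4l, an Hsp110 relative of Hspa4, which read 7.60, 7.28 and 8.08 in WT PM lungs and 8.95, 8.88 and 8.42 in WT PBS lungs (-1.09, SE 0.22, adjusted p 0.032), and thus lay on the opposite side to Hspa4. In the same WT lungs the mean of 9 macrophage genes was 9.70 to 10.35 under PM and 8.50 to 8.85 under PBS. Of these 9 genes 1 (11.1%) was called and 8 lay above PBS without overlap. Over all genes 2018 of 11600 lay above PBS in this way. Of 9 skeletal muscle genes tested 7 lay above PBS without overlap (median difference 5.34), as did 3 of 6 B and plasma cell genes (median 1.02) and 3 of 3 adipocyte genes (median 1.74), with none called. The part of these cells in the differences was not tested.

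Between genotypes no member was called in lung. Under PBS 0 of 35 passed where 0.0259% of all genes were called, with groups that did not overlap for 7 members against 13.8% of all genes. Under PM 0 passed where 0% of all genes were called, and groups overlapped for every member, against 8.34% of all genes without overlap. The interaction gave 0 calls where 0.00862% of all genes were called. Under PBS 4 members (11.4%, against 5.42% of all genes) had an unadjusted p under 0.05, all lower in dnCREB lungs: Hsph1 with -1.07, Sdf2l1 with -0.93, Creld2 with -0.65 and Manf with -0.52, at adjusted p values of 0.86 to 0.87. The last 3 are targets of reticulum stress signalling. Sdf2l1 read 5.17, 5.97 and 5.88 in dnCREB PBS lungs and 6.64, 6.86 and 6.30 in WT PBS lungs, and under PM it had -0.79 (adjusted p 0.90). The list's median under PBS was -0.17, against -0.029 over all genes. It was -0.031 against 0.0023 with the skeletal muscle class as covariate, and -0.053 against 0.13 with the sex-chromosome class. Without the arrays rich in skeletal muscle genes it was -0.18 against 0.0061. Both classes differ between the PBS lungs of the genotypes, and their part was not tested.

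The heart's lowest member under PBS did not stand apart in lung. Herpud1 read 11.22, 10.86 and 10.43 in dnCREB PM, 11.25, 11.02 and 11.22 in dnCREB PBS, 11.27, 11.33 and 11.03 in WT PM and 10.57, 11.48 and 10.99 in WT PBS lungs. All 4 groups overlapped, with 0.15 between genotypes under PBS and -0.37 under PM. Hspa9, the other member called in both conditions in heart, had 0.05 under PBS and -0.01 under PM in lung. The difference between the tissues was not tested.

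Lung arrays also differed among themselves in step. On dnCREB PM replicate 2 all 12 reticulum folding members and 8 of 9 cytosolic members were the highest of their group, against 29.9% of all genes, and 27 of 35 members in all (77.1%). On WT PM replicate 1 no member was the highest and 25 of 35 (71.4%) were the lowest, against 38.1% of all genes. WT PM replicate 3 had the highest Hspa1a of its group, 7.96 against 5.71 and 6.96, and the highest Dnaja1, 11.62 against 10.03 and 10.18.

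1 small heat shock protein followed the skeletal muscle genes. Hspb6 (Hsp20), an actin-binding chaperone of striated and smooth muscle, read 7.81 to 9.13 on the 5 lung arrays rich in skeletal muscle genes and 5.23 to 6.61 on the other 7. No array of the 1 kind overlapped the other. Over all genes tested 81 lay above and 22 below in this way, and Hspb6 was the 1 member of 35 to do so. Hspb7 and Hspb8, both abundant in muscle, overlapped, with 7.27 to 8.47 against 5.52 to 8.37 for Hspb7 and 8.09 to 9.45 against 7.70 to 8.61 for Hspb8. The pooled SD of Hspb6 within lung groups, 1.32, was larger than in 99.1% of genes, and its differences under PM of -0.88 in dnCREB and 1.38 in WT lungs were not called.

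**Figure D5:**
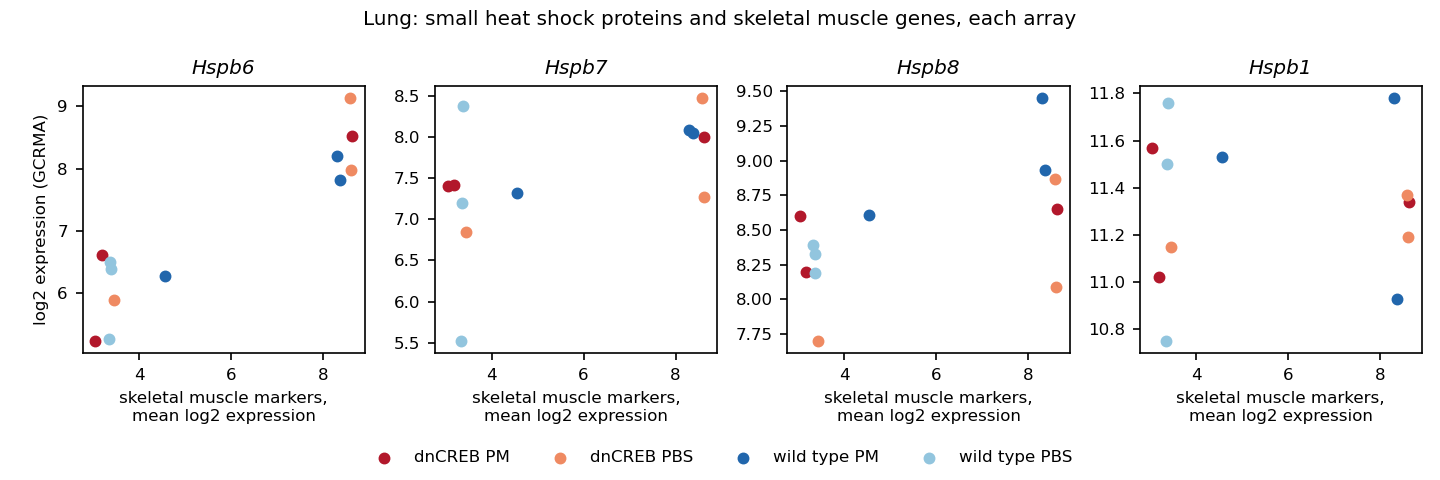
Log2 expression of the 4 small heat shock proteins on each lung array, against the mean log2 expression of 12 skeletal muscle genes on that array, coloured by group. The 5 arrays on the right, above 8, hold the 5 highest values of Hspb6 and come from 3 of the 4 groups, while Hspb1 shows no such order.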

How the data were processed

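The authors deposited log2 expression values per probe set for 24 Affymetrix arrays, made with GCRMA per the submitters' processing notes, with no version given. RNA was extracted with Trizol and labelled from 6 µg, per the labels' protocols. Of 45037 probe sets, 34945 matched 1 gene symbol in the platform annotation, 932 matched several and 9160 none, and the last 2 kinds were left out. Where a gene had several probe sets, the one with the largest average across the 24 arrays was used. Arrays give no counts, so their number limits the precision.

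For heart and lung apart, limma 3.58.1 (R 4.3.3) estimated 4 group means from 12 arrays, with Benjamini-Hochberg adjustment over all genes tested, in 5 comparisons. The fit was tested on simulated data. Tables used Python 3.11.15 and pandas 2.3.3. The labels do not tie lung and heart arrays to 1 animal, and p-values measure the spread between these arrays. Same-numbered arrays did not deviate together (correlations of -0.30 to 0.31 in heart and -0.33 to 0.33 in lung), so the numbers were not taken as pairs. The members, the related genes and the markers were chosen with earlier results of these data known. All 36 members could be named, those called with every array's value, and up to 6 related genes per comparison by smallest adjusted p. Other settings covered filters, scalings, probe sets, array weights, covariates, a replicate block and each array left out.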

Additional observations from a re-analysis of the deposited data

How the results depend on the processing

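In heart under PBS the 5 calls became 0 with sex-chromosome class added as covariate and 2 to 7 with 1 array left out. Under PM the 4 calls became 1 with that covariate, 2 with the groups compared alone and 3 to 5 with 1 array left out. Ddit3 under PBS turned to -0.024 with the mean of its probe sets, the second of which lay mostly under 4. In WT lungs under PM the 1 call became 0 with arrays centred, with the mean of probe sets, with the replicate block, with the groups compared alone, without the arrays rich in skeletal muscle genes and with that class as a covariate, an alternative added after the data were seen. It became 2 (where 17.9% of all genes passed) with the sex-chromosome class and 0 to 1 with 1 array left out. Array weights gave 5 calls in dnCREB lungs under PM (Hspa4, Atf4, Bag3, Creld2 and Pdia3), where 15.3% of all genes passed, and 1 between genotypes in lung under PBS (Pdia6), where 1.48% did. The replicate block left 5 and 4 calls in heart. The cause of these shifts was not tested. Other comparisons stayed at 0 calls under all settings run. Centring on the array median moved the median of all genes in WT lungs under PM to -0.11 from 0.11, and quantile normalization moved that in heart under PBS to -0.09 from 0.09.

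Herpud1 under PBS passed in 20 of 21 other settings (-1.42 to -1.18) and under PM in 14 of 21 (-0.80 to -0.53). Hspa9 passed in 16 and 20 of 21, Canx and Hspd1 under PM in 20 of 21 each, and Hspa4 under PBS in 19, Pdia4 in 16 and Ddit3 in 10. With 3 arrays a group, the sex-chromosome class in heart differs from the genotype on 1 array, so genotype and that class can hardly be told apart there. Probe sets under 4 give little more than background.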
